A study of Homo sapiens with 6 samples.

Results

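The RNAs described here are the small nucleolar RNAs (snoRNAs) and small Cajal body RNAs (scaRNAs) in the count table, taken as the rows whose symbol begins with SNORA, SNORD or SCARNA and whose mean raw count over the 6 libraries was 10 or more. Of 408 rows with these prefixes 189 met this minimum, 72 SNORA, 99 SNORD and 18 SCARNA, and 219 lay below it. The members were selected on this mean count, so their level is a description and not a result. At the edge, SNORD116-26 and SNORD42A had a mean of exactly 10 counts and were kept, whereas SNORD14D and SNORD83B, each with a mean of 9.83, were not. All 189 passed the filter on low counts, but 36 of them had a mean under 10 in at least 1 condition, and those entered through the conditions in which they were higher.

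RNA-seq was performed on BLaER1-CTCF-mAID cells, a B cell leukemia line in which exogenous CEBPA, induced with estradiol in the presence of IL-3 and CSF-1, drives conversion into induced macrophages (iMacs). All 6 libraries come from this line, in which CTCF carries a degron that is removed when the auxin indole-3-acetic acid (IAA) is given. There were 2 biological replicates each at 0 h (uninduced B cells), at 96 h of conversion without IAA (control) and at 96 h of conversion with IAA (CTCF-depleted). No cells without the degron were treated with IAA here, so an effect of IAA itself cannot be told apart from loss of CTCF.

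Most snoRNAs are cut out of introns of longer host transcripts. SNORD RNAs carry boxes C and D and guide 2′-O-methylation of ribosomal RNA, SNORA RNAs carry boxes H and ACA and guide its pseudouridylation, and SCARNA RNAs stay in Cajal bodies, where they guide the same modifications on the small nuclear RNAs of the spliceosome. A few, such as U3 (SNORD3A) and U13 (SNORD13), are transcribed from promoters of their own and act in processing or modification of pre-ribosomal RNA without guiding methylation.

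Total counts ran from 9273470 to 12718780 per library, of which all members together took 0.227% to 0.294%. Of the listed B cell markers, 7 of 7 fell at 96 h in control cells and their summed level went from 2335 and 2348 CPM (counts scaled to the library total by TMM) at 0 h to 418 and 428 CPM. All 6 macrophage markers rose, from sums of 38.7 and 35.0 to 5160 and 4916 CPM. T cell markers reached at most 1 count in a library and the 3 erythroid markers were at 0 in every library, while COL1A1, a fibroblast marker, was low and fell with conversion (10.4 to 11.5 CPM at 0 h, 2.78 to 3.97 CPM at 96 h). The CTCF transcript was at 181 and 174 CPM in control and 191 and 189 CPM in CTCF-depleted cells at 96 h (edgeR, adjusted p = 0.119), and since the degron removes the protein, the transcript does not check the label.

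The sequences below are those of members on which the comparisons turn, read from hg38 at the positions RefSeq gives for GRCh38.p14. In SNORD sequences the capitals mark box C, searched as TGATGA in the first 20 bases, and box D, searched as CTGA in the last 20 bases; in SNORA sequences and in SCARNA21 they mark the ACA triplet in the last 8 bases. SCARNA5 carries boxes C and D and is marked for these. Where a box has no capitals, those letters were not in the window. The first set holds members that were higher at 96 h. SNORD10 (chr17:7576811-7576958, plus strand) lies in an intron of EIF4A1, SNORA53 (chr12:98599635-98599884, plus strand) in an intron of SLC25A3, SNORA74B (chr5:173020726-173020929, plus strand) in an intron of ATP6V0E1, SCARNA21 (chr17:7906123-7906260, plus strand) in an intron of CHD3 and SCARNA5 (chr2:233275726-233276003, plus strand) in an intron of ATG16L1.
SNORD10: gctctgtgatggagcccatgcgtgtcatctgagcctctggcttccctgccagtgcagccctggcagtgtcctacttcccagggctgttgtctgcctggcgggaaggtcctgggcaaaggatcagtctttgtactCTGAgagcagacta
SNORA53: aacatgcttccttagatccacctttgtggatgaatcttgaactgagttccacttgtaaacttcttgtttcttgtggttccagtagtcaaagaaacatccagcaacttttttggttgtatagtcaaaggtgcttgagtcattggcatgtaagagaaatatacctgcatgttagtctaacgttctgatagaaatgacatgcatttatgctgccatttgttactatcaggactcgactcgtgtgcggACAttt
SNORA74B: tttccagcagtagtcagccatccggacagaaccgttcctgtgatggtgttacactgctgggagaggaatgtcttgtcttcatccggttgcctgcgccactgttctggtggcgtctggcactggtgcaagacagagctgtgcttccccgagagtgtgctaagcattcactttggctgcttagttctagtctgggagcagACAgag
SCARNA21: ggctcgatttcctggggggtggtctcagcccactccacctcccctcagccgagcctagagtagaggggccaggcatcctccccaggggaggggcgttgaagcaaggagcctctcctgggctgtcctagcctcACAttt
SCARNA5: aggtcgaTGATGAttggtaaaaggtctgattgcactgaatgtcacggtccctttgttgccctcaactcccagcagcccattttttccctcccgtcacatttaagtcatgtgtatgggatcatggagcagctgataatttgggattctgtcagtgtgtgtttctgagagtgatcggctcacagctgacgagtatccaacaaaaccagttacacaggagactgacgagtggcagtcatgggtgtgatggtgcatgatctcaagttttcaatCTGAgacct

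The second set holds members that were lower at 96 h, which are shorter, and SNORD3A, whose value depends on 1 library. SNORD28 (chr11:62854621-62854695, minus strand) lies in an intron of SNHG1 and SNORD100 (chr6:132816802-132816877, plus strand) in an intron of RPS12. SNORD116-4 (chr15:25059537-25059634, plus strand) and SNORD3A (chr17:19188016-19188232, plus strand) lie in no host gene that has a row in the table.
SNORD28: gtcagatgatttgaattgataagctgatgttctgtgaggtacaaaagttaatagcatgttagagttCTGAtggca
SNORD100: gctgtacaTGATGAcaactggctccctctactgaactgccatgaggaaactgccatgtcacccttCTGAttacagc
SNORD116-4: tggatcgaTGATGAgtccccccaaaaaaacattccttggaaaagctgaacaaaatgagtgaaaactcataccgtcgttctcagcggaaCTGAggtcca
SNORD3A: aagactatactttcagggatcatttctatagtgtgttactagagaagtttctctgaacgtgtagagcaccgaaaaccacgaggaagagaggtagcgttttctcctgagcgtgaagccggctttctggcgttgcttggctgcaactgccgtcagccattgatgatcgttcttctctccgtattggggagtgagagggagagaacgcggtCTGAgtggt

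The third set holds 4 of the members that differed between CTCF-depleted and control cells. SNORA32 (chr11:93730979-93731099, minus strand) and SNORD5 (chr11:93733228-93733300, minus strand) lie within TAF1D, outside its canonical transcript, SNORA21 (chr17:38852863-38852995, minus strand) lies in an intron of RPL23 and SNORD62B (chr9:131490486-131490571, plus strand) in an intron of PRRC2B.
SNORA32: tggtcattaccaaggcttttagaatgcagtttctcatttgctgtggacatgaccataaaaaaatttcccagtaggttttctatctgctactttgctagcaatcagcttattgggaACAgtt
SNORD5: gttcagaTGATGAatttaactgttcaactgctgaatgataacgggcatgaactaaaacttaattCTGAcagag
SNORA21: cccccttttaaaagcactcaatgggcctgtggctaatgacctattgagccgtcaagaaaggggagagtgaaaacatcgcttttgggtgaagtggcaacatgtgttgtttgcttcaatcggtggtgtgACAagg
SNORD62B: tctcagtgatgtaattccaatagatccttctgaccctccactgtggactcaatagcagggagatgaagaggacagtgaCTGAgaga

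Over all members, TGATGA was found in the first 20 bases of 63 of 99 SNORD members (63.6%) and CTGA in the last 20 bases of 98 (99.0%), against 1.01% and 8.08% of windows of the same lengths that start 200 bases further downstream. An ACA in the last 8 bases was found in 65 of 72 SNORA members (90.3%), against 9.72% of the downstream windows. Of the 18 SCARNA members 10 ended on ACA and 5 had both TGATGA and CTGA. The letters were searched on the strand of the RNA, and the windows for box C and box D do not overlap in any member. Of the 189 members, 166 lie within 1 of 98 host genes that have a row of their own, 156 of them in an intron of the host's canonical GENCODE transcript.

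Counts were concentrated in a few long members. SNORA73A (U17, which acts in pre-ribosomal RNA processing) alone held 25.5% of all member counts, and the 10 members with the highest counts held 67.8%. By length, SNORA73A also had the highest level, at 3322 CPM per kb, followed by SCARNA21 at 936, SNORD17 at 910 and SCARNA10 at 867 CPM per kb. SNORD members were 61 to 237 bases long with a median of 80, SNORA members 121 to 250 with a median of 134 and SCARNA members 125 to 421 with a median of 226.5. The 87 members under 100 bases, all SNORD, had mean counts between 10 and 101 and a median of 24.0 CPM per kb, near the 24.8 of the 85 members of 100 to under 200 bases, whereas the 17 members of 200 bases or more had a median of 179 CPM per kb. The counts cannot tell a finished short RNA from an unspliced host transcript that runs over the same bases.

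In control cells at 96 h against 0 h, 16 members were called higher and 40 lower, beside 25.4% and 22.9% of all genes tested. A call needed an adjusted p under 0.01 in edgeR's quasi-likelihood test (Benjamini-Hochberg over 14758 genes) and a change of more than 0.6 on the log2 scale. Of the 99 SNORD members 3 rose and 28 fell, with a median log2 fold change of -0.60. Of the 72 SNORA members 8 rose and 11 fell, with a median of -0.12, and of the 18 SCARNA members 5 rose and 1 fell, with a median of 0.45, beside 0.02 over all genes. The difference between the classes was not tested. Of the 40 lower calls 11, of which 9 were SNORD, and of the 16 higher calls 1 came from members with a mean under 10 counts in some condition. Among the 153 members at 10 counts or more in every condition, 15 were higher and 29 lower, and the SNORD median was -0.56. CPM are relative to the rest of the library, and in these bulk samples fewer cells that hold an RNA cannot be told apart from less of it per cell. The median standard error was 0.35 for SNORD, 0.28 for SNORA and 0.12 for SCARNA members, beside 0.11 over all genes, so changes in SNORD members had to be larger to pass. DESeq2 called fewer members, 12 higher and 8 lower, all of them also called by edgeR. Over all 30017 genes in the table DESeq2 called 3353 higher and 2975 lower, beside 3748 and 3376 of 14758 tested by edgeR. The count by DESeq2 thus lay further below that by edgeR for members than for all genes. Without control replicate 1 at 96 h 22 members were lower and without replicate 2 there were 25.

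**Figure D1:**
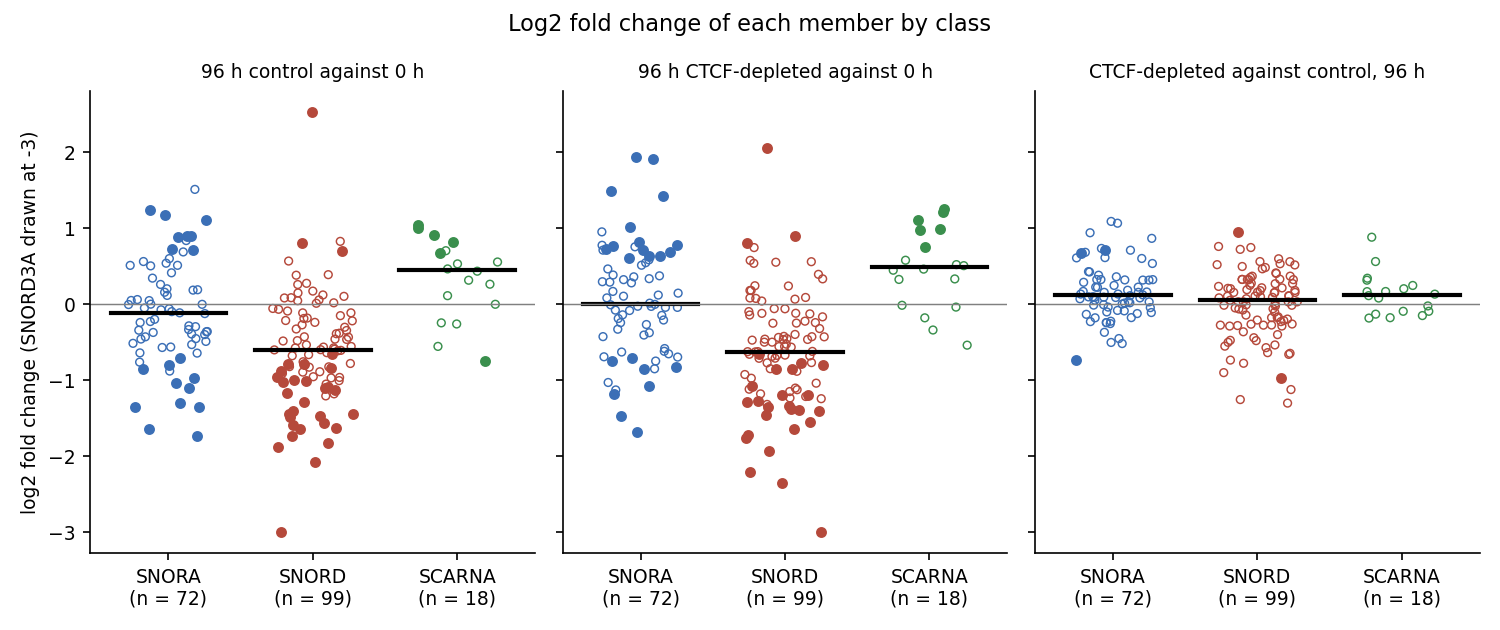
Each point is 1 member, with its log2 fold change on the vertical axis, in 3 comparisons. Filled points passed the threshold and black bars are class medians. Against 0 h the value of SNORD3A lies below the range drawn, and its point stands at the lower limit of that range. In control cells at 96 h the SNORD median is at -0.60 and the SCARNA median at 0.45, and between CTCF-depleted and control cells few points are filled.

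As shares of all counts, SCARNA members took 0.0683% and 0.0700% at 0 h, 0.0960% and 0.0991% in control cells at 96 h and 0.111% and 0.110% in CTCF-depleted cells. SNORA members went from 0.0994% and 0.0868% at 0 h to 0.111% and 0.122% in control cells, and most of that difference was SNORA73A, without which the shares were 0.0420% and 0.0379% at 0 h and 0.0404% and 0.0449% at 96 h. SNORD members without SNORD3A, which is described further on, took 0.0587% and 0.0579% at 0 h, 0.0503% and 0.0521% in control cells and 0.0574% and 0.0551% in CTCF-depleted cells. That the CTCF-depleted libraries lay close to those at 0 h rested on SNORD17. Without it as well, the other 97 SNORD members took 0.0411% and 0.0396% at 0 h. They took 0.0296% and 0.0299% in control cells and 0.0312% and 0.0315% in CTCF-depleted cells, which lay near control. The SNORD members under 100 bases, a limit chosen after the values were seen, took 0.0306% and 0.0302% at 0 h, 0.0181% and 0.0182% in control cells and 0.0188% and 0.0190% in CTCF-depleted cells. For SCARNA and short SNORD members the 0 h libraries did not overlap with the 96 h libraries, in opposite directions. The smallest p that 2 libraries against 2 allow in an exact permutation test is 0.333, and these sums are described without a test. A listed set of 24 other short structured noncoding RNAs, such as RMRP and RN7SK, took 3.93% and 3.81% at 0 h and between 4.47% and 4.81% at 96 h, and of its 18 tested members 3 rose and 2 fell in control cells.

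The SCARNA members that rose were SCARNA10, SCARNA7, SCARNA5, SCARNA17 and SCARNA21. SCARNA10 (U85, which guides modification of U5) was at 159 and 161 CPM at 0 h, 330 and 328 CPM in control cells and 380 and 358 CPM in CTCF-depleted cells. Its replicates lay close together, and the log2 fold change at 96 h in control cells was 1.04 (SE 0.05, edgeR adjusted p = 4.4e-27). SCARNA7 was at 35.2 and 34.1 CPM at 0 h against 63.4 and 75.1 CPM in control cells (1.00, SE 0.08). SCARNA5 was at 26.0 and 32.2 CPM against 55.0 and 55.8 CPM (0.92, SE 0.09). SCARNA21, the most abundant SCARNA per length, was at 89.2 and 92.0 CPM against 138 and 150 CPM (0.67, SE 0.06). For each of these the libraries at 0 h lay below those at 96 h in both arms. SCARNA17 was at 16.9 and 18.5 CPM against 33.4 and 29.4 CPM (0.82, SE 0.11).

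Of the other 13 SCARNA members 1 passed. SCARNA2 and SCARNA9, which guide modification of U2, were at log2 fold changes of 0.31 and 0.53, under the fold threshold with adjusted p-values of 2.1e-07 and 7.2e-09 (edgeR). SCARNA16 was at 0.43, SCARNA6 at 0.26, SCARNA1 at 0.70, SCARNA3 at 0.46, SCARNA18 at 0.55 and SCARNA4 at 0.11, and none of them passed. SCARNA12 and SCARNA22 were at -0.26 and -0.25, SCARNA27 at -0.56 and SCARNA15 at 0.00. SCARNA9L, a relative of SCARNA9 within EIF1AX on the X chromosome, was the member that fell, from 11.7 and 12.1 CPM to 6.27 and 7.96 CPM (-0.74, SE 0.17), beside -0.92 for EIF1AX.

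Of the 5 SNORA members with the highest levels 3 rose in control cells, and the libraries of all 5 lay higher at 96 h than at 0 h. SNORA73A was at 550 and 466 CPM at 0 h, 732 and 805 CPM in control cells and 755 and 818 CPM in CTCF-depleted cells. All 4 libraries at 96 h lay above both at 0 h, and the log2 fold change of 0.60 (SE 0.05) in control cells was just under the fold threshold that the 0.63 in CTCF-depleted cells passed. SNORA53 was at 23.0 and 23.0 CPM at 0 h against 46.6 and 52.7 CPM in control cells (1.11, SE 0.09, edgeR adjusted p = 1.5e-16). SNORA74B was at 3.92 and 4.50 CPM against 9.62 and 10.6 CPM (1.24, SE 0.20). SNORA48 and SNORA63 rose by 0.90 and 0.71, and SNORA74A was at 0.54 without passing. SNORA48 lost its call without 0 h replicate 2, at 0.58. The SNORA members with the smallest adjusted p among those that fell were SNORA26, from 4.95 and 6.23 to 2.12 and 2.32 CPM (-1.35, SE 0.28), and SNORA80B, from 5.26 and 4.88 to 1.68 and 2.41 CPM (-1.31, SE 0.29).

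**Figure D2:**
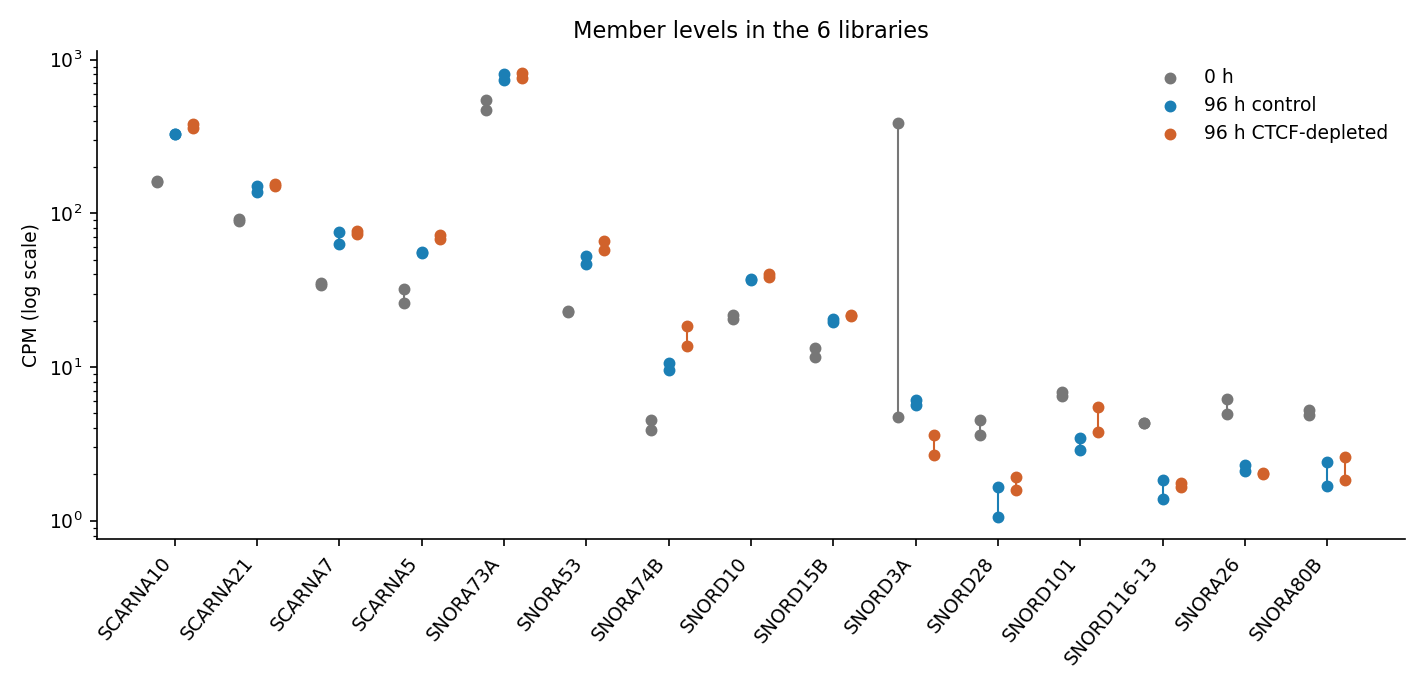
CPM on a log axis for 15 members, with 1 point per library and a line between the 2 replicates of a group. The members on the left lie higher at 96 h than at 0 h, those on the right of SNORD3A lie lower, and the 0 h replicates of SNORD3A stand at 4.74 and 385 CPM.

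Among SNORD members the rises were SNORD10, SNORD15B and SNORD89. SNORD10 was at 21.9 and 20.6 CPM at 0 h against 37.1 and 37.2 CPM in control cells (0.81, SE 0.09). SNORD15B was at 13.2 and 11.7 CPM against 19.7 and 20.4 CPM (0.69, SE 0.13), and lost its call without 0 h replicate 2, at 0.56. SNORD89, singled out after its values were seen, had 1 and 6 counts at 0 h and 20 and 20 counts in control cells, a log2 fold change of 2.53. SNORD17 and SNORD97, both long and abundant, were at 0.38 and 0.39, under the fold threshold. Of the members that fell, SNORD28 went from 4.54 and 3.60 to 1.06 and 1.67 CPM (-1.56, SE 0.34), SNORD101 from 6.50 and 6.90 to 3.44 and 2.87 CPM (-1.09, SE 0.24) and SNORD116-13 from 4.33 and 4.35 to 1.85 and 1.39 CPM (-1.41, SE 0.31). These 3 also fell by DESeq2.

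SNORD3A (U3) had 46 and 5134 counts at 0 h, 69 and 61 in control cells and 39 and 29 in CTCF-depleted cells. Its call of -5.09 in control cells rests on 0 h replicate 2 alone, since the other 0 h library lay below both control libraries, and without that replicate the log2 fold change was 0.27 (edgeR adjusted p = 0.412). SNORD3A has 5 near copies in the genome, its own locus included, and how its reads were shared among them is not given in the sources used here. SNORD13 (U13) was at 21.4 and 15.1 CPM at 0 h and 11.2 and 14.5 CPM in control cells (-0.48, not called), and its call in CTCF-depleted cells (-0.66) was lost without 0 h replicate 1, at -0.38. SNORD118 (U8) was listed at 0 counts in every library and is no member.

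The change at 96 h went with the length of the RNA. None of the 87 members under 100 bases rose and 27 fell, with a median log2 fold change of -0.66 and 14 values above 0. Over all genes tested, 25.4% rose and 22.9% fell, a background for each count in this paragraph. DESeq2 called 4 of these 27 lower (SNORD101, SNORD116-13, SNORD14B and SNORD28), and 9 of the 27 had a mean under 10 counts in some condition. Of the 85 members of 100 to under 200 bases 10 rose and 11 fell, with a median of -0.07, and of the 17 members of 200 bases or more 6 rose and 2 fell, all 8 also by DESeq2, with a median of 0.53. Within SNORD, 3 of the 12 members of 100 bases or more rose and 1, SNORD3A, fell. The limits of 100 and 200 bases were chosen after the values were seen. Over the 189 members, which share the same 6 libraries, Pearson's r between length and log2 fold change was 0.34 and Spearman's rho 0.46. Level went with length: of the 31 members with a mean of 100 counts or more 12 rose and 2 fell, with a median length of 187 bases, and of the 60 members under a mean of 20 counts 1 rose and 13 fell, with a median length of 94 bases. The parts of length, level and class in these values cannot be told apart. GC content went with the change less closely (r = 0.15, rho = 0.22).

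The host genes of the members changed in part in the same direction. Of 161 members with a tested host, 115 (71.4%) had a log2 fold change of the same sign as the host in control cells at 96 h, and over these pairs r was 0.49 and rho 0.36; pairs with 1 host share its value. Of these pairs 110 members and 134 hosts lay below 0, and all values come from the same libraries, so that signs can match without a link between member and host. Of the 32 members with a tested host that fell, 18 had a host that also fell and 14 a host that was not called. Of the 13 risers with a tested host, 2 had a host that rose and 11 a host that was not called. No member and host were called in opposite directions in control cells.

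The members that lie in no host with a row, 23 in all and 11 of them in the SNORD116 cluster, had a median log2 fold change of -0.83 (8 fell, 1 rose). Over all genes tested, 22.9% fell and 25.4% rose. The 41 members within 18 long noncoding hosts had a median log2 fold change of -0.66 (12 fell, none rose) beside a median of -0.58 for the hosts, and 34 of the 41 had the sign of their host. The 39 members within 22 ribosomal protein genes had a median of -0.52 (9 fell, 1 rose), beside -0.16 for the hosts, of which 2 fell. The 86 members within other protein-coding genes had a median of 0.01 (14 rose, 11 fell) beside -0.28 for the hosts. Of the 15 risers with a host, 14 were in this last group.

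Where 1 host carries several members, these did not always move together. SNHG1, a noncoding RNA whose known products are its intronic snoRNAs, fell from 108 and 107 CPM to 62.8 and 65.2 CPM (-0.75, SE 0.07), and 6 of its 8 members fell, with all 8 below 0. The exception in size was SNORD22, at 126 bases the longest of the 8, with -0.06. GAS5, another such host, was at -0.36, and its 9 members were between -1.21 and -0.11, with 2 called. RPS12, which encodes a ribosomal protein, was at -0.14, while its 3 members all fell, SNORD100 from 2.48 and 1.88 to 0.71 and 0.28 CPM (-2.08). The value of SNORD100 rests on low counts, with a mean of 12 over the 6 libraries. Within EIF4A2, which was at 0.13, SNORA63 rose by 0.71 while SNORD2 and SNORA4 fell by 0.66 and 0.86. DESeq2 kept the call of SNORA63 but not those of SNORD2 and SNORA4. The 11 members of the SNORD116 cluster, an imprinted repeat array on chromosome 15 with no host row in the table, were between -1.88 and -0.54, with 5 called. Their summed level was 33.2 and 35.6 CPM at 0 h and 14.3 and 19.1 CPM in control cells. Of these 11, 9 have near copies at other loci, so that their single values are uncertain. Of the calls within SNHG1, GAS5, RPS12 and the SNORD116 cluster, DESeq2 kept only those of SNORD28, SNORD101 and SNORD116-13.

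**Figure D3:**
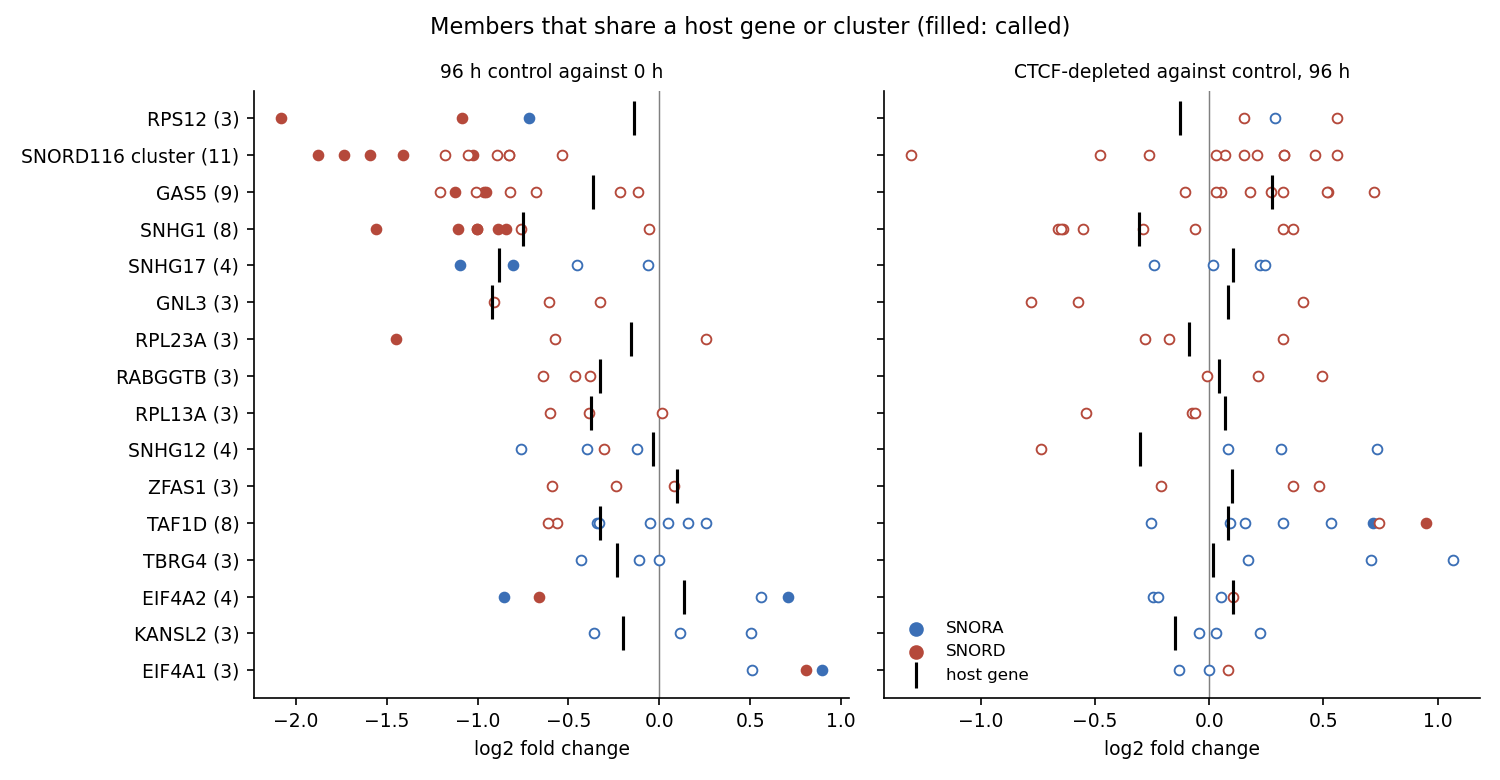
Log2 fold change of the members of each host or cluster with 3 or more members, with the host gene as a black tick, for control cells at 96 h against 0 h and for CTCF-depleted against control cells. The SNHG1, RPS12 and SNORD116 members lie left of 0 in the first panel, where EIF4A2 has filled points on both sides.

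Other pairs parted from their hosts. NCAPD2, a condensin subunit, was at 284 and 287 CPM at 0 h and 198 and 198 CPM in control cells (-0.53, SE 0.05), while its SCARNA10 rose by 1.04, a difference of 1.57 (SE 0.07). SNX5, which holds SNORD17, fell by 1.04, and SNORD17 was at 0.38, a difference of 1.42 (SE 0.07). SNORA74A, at 0.54, lies within both SNHG4, which fell by 1.32, and the more highly expressed MATR3, at -0.57 and not called, and the counts do not tell which is its host; SNHG3 fell by 0.65 with its SNORA73A at 0.60. SLC25A3, the mitochondrial phosphate carrier, was at -0.12 while SNORA53 rose by 1.11. In other pairs host and member rose or fell together: ATP6V0E1, a subunit of the lysosomal proton pump, rose by 1.00 and its SNORA74B by 1.24, and RNF149 rose by 3.05 with its SNORD89. ODC1, which starts polyamine synthesis, fell by 2.77 and its SNORA80B by 1.31, and DANCR fell by 1.98 with its SNORA26 at -1.35. The 3 members within EIF4A1 (SNORA48, SNORD10 and SNORA67) were at 0.90, 0.81 and 0.51, but EIF4A1 was listed at 0 in every library and the read-through row over it had 3 to 12 counts, so no host value can be given.

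**Figure D4:**
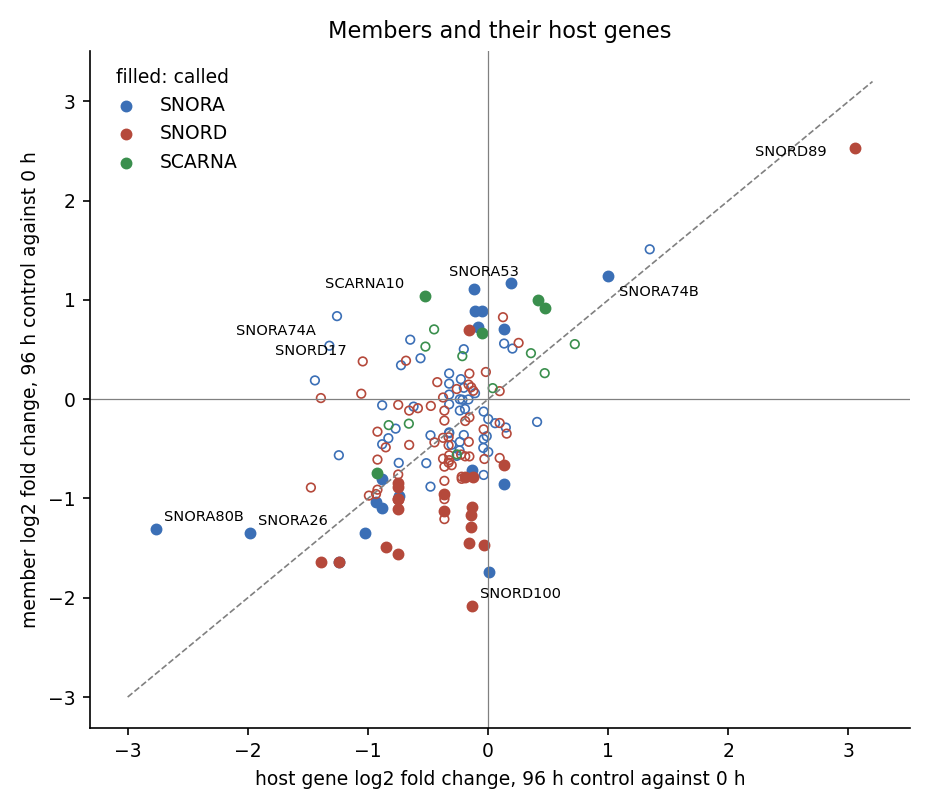
Log2 fold change of the host gene (horizontal) and of the member (vertical) in control cells at 96 h against 0 h for 161 pairs; the dashed line marks equal values and filled members passed the threshold. SNORD89 and SNORA74B lie near the line in the upper right, while SCARNA10, SNORA53 and SNORD17 lie above a host that is below 0.

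Transcripts of the core proteins of these particles fell. Of 37 listed factors tested, 18 fell and 1 rose in control cells at 96 h, and 32 were below 0. All 4 C/D core proteins fell, with NOP56 from 279 and 282 to 117 and 120 CPM (-1.24) and FBL, the methyltransferase, by 0.80. All 4 H/ACA core proteins fell, with NHP2 by 1.19 and DKC1, the pseudouridine synthase, by 0.64; NOP10 was at -0.54 and not called without control replicate 2. Of 8 Cajal body and nucleolar scaffold factors 6 fell, among them NOLC1 (-1.10) and WRAP53 (-0.89), which directs scaRNAs to Cajal bodies, while COIL, the coilin that marks these bodies, was at -0.39 and SMN1 at 0.44, neither called. SNAPC3, a subunit of the complex that binds small nuclear RNA promoters, rose by 0.77. Of 10 assembly factors 3 fell, and of 6 factors of end processing and turnover TOE1 fell (-0.90).

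In CTCF-depleted cells at 96 h against 0 h, 23 members were higher and 32 lower, where 27.2% of all genes tested were higher and 25.2% lower. This comparison shares the 0 h libraries with that of control cells. Of 18 SCARNA members 6 rose and none fell, the sixth being SCARNA16, from 12.7 and 12.1 CPM at 0 h to 24.1 and 25.1 CPM (0.99, SE 0.12). Of 72 SNORA members 14 rose and 8 fell, and of 99 SNORD members 3 rose and 24 fell, with medians of 0.00 and -0.62. Members with the smallest adjusted p among those that fell included SNORD31, at 5.98 and 6.15 CPM at 0 h and 2.04 and 1.84 CPM (-1.64), SNORD26 (-1.40) and SNORD116-4, at 2.99 and 3.08 CPM against 0.74 and 0.55 CPM (-2.21). SNORD116-4 averaged 35 counts at 0 h and 7 in CTCF-depleted cells, so it is a member through its 0 h level. It has 6 near copies, its own locus included, and its value is uncertain. SNORD3A was called at -5.99, and without 0 h replicate 2 it was at -0.60 (edgeR adjusted p = 0.0794). Host and member parted in sign in these pairs: SCARNA10 rose by 1.21 where NCAPD2 fell by 1.12, and SNORA74A rose by 0.63 where SNHG4 fell by 0.88 and MATR3 by 0.84. DESeq2 called 15 members higher and 9 lower, all also called by edgeR, and without 0 h replicate 1 edgeR called 19 lower. Without 0 h replicate 2, SNORA73A, SNORA74A and SNORA48 lost their calls, at 0.51, 0.60 and 0.48.

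Between CTCF-depleted and control cells at 96 h, 3 members were higher and 2 lower, where 5.41% and 7.03% of all genes tested were. The other 184 of 189 members did not pass, and the median log2 fold change was 0.10, beside -0.03 over all genes. The median standard error of the members, 0.34, beside 0.11 over all genes, limits what could be detected. DESeq2 called no member in either direction, beside 559 higher and 721 lower of all 30017 genes. At an unadjusted p under 0.05 there were 13 members by DESeq2 and 23 by edgeR, beside 6732 of 14758 genes by edgeR. Each of the 5 calls was lost without at least 1 library. Without control replicate 1 SNORA74B, SNORA32, SNORD5 and SNORD62B were not called (0.63, 0.56, 0.87 and -0.86), without control replicate 2 SNORD5 (1.09), SNORA21 (-0.69) and SNORD62B were not, without CTCF-depleted replicate 1 SNORA74B, SNORA21 and SNORD62B were not (0.47, -0.62 and -0.72) and without CTCF-depleted replicate 2 SNORD5 was not (0.89).

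SNORA74B was at 9.62 and 10.6 CPM in control and 18.4 and 13.6 CPM in CTCF-depleted cells, a log2 fold change of 0.67 (SE 0.16, edgeR adjusted p = 0.000482). Its host ATP6V0E1 also rose, from 38.3 and 39.0 to 69.4 and 63.4 CPM (0.78, SE 0.08), and this was the only one of the 5 whose host was called. SNORA32 and SNORD5 lie within TAF1D, which was at 0.08. SNORA32 was at 5.91 and 7.78 CPM in control and 11.1 and 11.3 CPM in CTCF-depleted cells (0.72, SE 0.18), and SNORD5 at 2.29 and 2.69 against 4.54 and 5.07 CPM (0.95, SE 0.28). The other 6 members within TAF1D were between -0.26 and 0.75 and did not pass. At 0 h SNORA32 was at 8.15 and 9.08 CPM and SNORD5 at 4.74 and 3.08 CPM.

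SNORA21 was lower, at 10.7 and 10.9 CPM in control and 6.11 and 6.82 CPM in CTCF-depleted cells (-0.74, SE 0.18), with 10.9 and 10.7 CPM at 0 h, and its host RPL23 was at 0.05. SNORD62B was at 6.53 and 5.93 CPM in control and 2.69 and 3.68 CPM in CTCF-depleted cells (-0.97, SE 0.24), with its host PRRC2B at 0.19. Over all 6 libraries SNORD62B averaged 4.53 CPM, below both control values. SNORD62B has a second near copy in the genome, and its value is uncertain. In each of the 5 members both CTCF-depleted libraries lay on 1 side of both control libraries. The 5 were chosen by their values in these same libraries, so this adds no support. Among all 189 members, 45 lay higher and 27 lower without overlap. No share over all genes is given for this, so these counts are not read as a result about the members. None of the 18 SCARNA members was called. SCARNA27 was at 0.88 (SE 0.39, edgeR adjusted p = 0.067). SCARNA16, at 16.0 and 17.4 CPM in control and 24.1 and 25.1 CPM in CTCF-depleted cells, was under the fold threshold at 0.56 (SE 0.12, edgeR adjusted p = 0.000109). It lies within both LINC00338, at 0.50, and the more highly expressed SEC14L1, which fell by 0.60, and SCARNA5 and SCARNA10 were at 0.34 and 0.17. Host and member had the same sign in 91 of 161 pairs (56.5%), where 62 members and 78 hosts lay below 0, with r = 0.21 and rho = 0.17. None of the 37 listed factors was called. Of the 10 assembly factors 5 lay below 0, with a median of 0.01. Among them the helicases RUVBL1 and RUVBL2 were at -0.41 and -0.40, while SHQ1, ZNHIT3 and NAF1 were at 0.33, 0.30 and 0.28.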

How the data were processed

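RNA-seq counts for 6 libraries were used, 2 per condition. The deposited values are raw counts per gene symbol that the authors made by alignment to hg38 with STAR (2.6.1d) and counting with featureCounts (2.0.6), per the labels and the methods, which name protein-coding exons. The annotation and the strand setting are not given in the sources used here, although the table lists noncoding rows. RNA was sheared and ribosomal RNA was depleted before library preparation. Reads of overlapping rows or near copies may have been lost or shared, and counts carry no molecular identifiers.

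edgeR 4.0.16 in R 4.3.3 was used (filterByExpr, TMM, glmQLFit and glmQLFTest, condition as the only term, all 6 libraries), with DESeq2 1.42.0 as an alternative. The paper used DESeq2 with the same thresholds. The scripts were tested on simulated data. P-values were adjusted over all 14758 genes tested. Members, gene lists and host classes were chosen with earlier results of these data known. The members named were the 5 with the highest CPM in SNORA and SNORD, every SCARNA, up to 5 with the smallest adjusted p per direction and comparison whose libraries did not overlap, and SNORD3A, SNORD118 and SNORD13; members singled out for their values are said to be so or stand as examples of a host with 3 or more members. Positions were taken from RefSeq (184 symbols matched, 5 by an earlier symbol), the strand and the host from GENCODE release 44, taking the shortest containing gene on the same strand that has a row. Near copies were loci with at least 95% identity over 90% of the length (BLAST 2.17.0), the member's own locus included, and 22 members had more than 1. Same-numbered replicates were not paired.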

Additional observations from a re-analysis of the deposited data

Results flagged for a closer look

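For 5 members the change during conversion differed between CTCF-depleted and control cells, by the direct contrast of both arms at 96 h (edgeR, adjusted p below 0.01 over all genes tested and a difference of more than 0.6 on the log2 scale). These were 2.65% of the 189 members, a lower share than the 12.4% of all genes tested. DESeq2 called none of the 5. SNORA74B was higher in CTCF-depleted cells by 0.67 on the log2 scale, SNORA32 by 0.72 and SNORD5 by 0.95. SNORA21 was at -0.74 and SNORD62B at -0.97. No explanation of these differences was tested.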

How the results depend on the processing

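DESeq2 called 12 members higher and 8 lower in control cells at 96 h (edgeR 16 and 40), 15 higher and 9 lower in CTCF-depleted cells against 0 h (edgeR 23 and 32), and 0 and 0 between the arms (edgeR 3 and 2). Over all 30017 genes DESeq2 called 3353 higher and 2975 lower in control cells, and 3648 and 3340 in CTCF-depleted cells against 0 h. Between the arms DESeq2 called 559 genes higher and 721 lower. With an adjusted p below 0.05 and no fold threshold the counts were 28 higher and 62 lower in control cells, 59 lower in CTCF-depleted cells against 0 h, and 11 higher and 4 lower between the arms. With a fold threshold of 1 on the log2 scale 6 members were higher in control cells, 9 in CTCF-depleted cells, and 0 higher and 0 lower between the arms. Shares of all genes under these settings are not given here, so the counts are not read against a background. Counts for the remaining directions against 0 h are not given either. Asking for 10 counts in every library left 26 lower in control cells, since members with fewer counts in some library were themselves no longer tested. Leaving out 1 library gave 22 to 33 lower in control cells, 19 to 24 lower in CTCF-depleted cells against 0 h, and 0 to 3 higher and 0 to 2 lower between the arms. Without SNORD62B, which has another near copy, 1 member was lower between the arms (chosen after seeing the data). Keeping only members at a mean of 10 counts or more in every condition, also chosen after seeing the data, left every count within 1.5 times its value. SNORD3A in control cells ranged from -6.04 to 0.27 and changed sign without 0 h replicate 2. With a mean count of at least 20, the SNORD share was 0.0467% and 0.0487% in control and 0.0535% and 0.0515% in CTCF-depleted cells. Of 114 named calls, which also cover hosts and processing factors, 92 passed under every alternative run. That share does not hold for the members alone, of whose calls DESeq2 kept the smaller counts given above. Except for the library left out and the filter at 10 counts, the cause of these differences was not tested.

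The replicate numbers did not pair the libraries (correlations of deviations -0.03 to 0.01), and with the number as a replicate block 16 members were higher and 38 lower in control cells, 22 and 32 in CTCF-depleted cells against 0 h, and 3 and 2 between the arms, so that the block moved no count by over 1.5 times. RLE in place of TMM normalization, no filter on low counts, a fit of only the 4 libraries compared, library sizes without the members and the highest expressed host each left every count within 1.5 times its value. Low counts limit the SNORD members most.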
